A study of Mus musculus with 6 samples.

Results

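Genes of DNA replication and of mitosis were compared between 3 mice that received NOX-A12 and 3 that were left untreated, using RNA from whole marrow of the SCID/Bg strain. With earlier results of these data known, 34 genes were chosen by their textbook roles. They comprise 16 of replication and S-phase entry and 18 of mitosis. Of these, 33 had a probe set that named 1 gene symbol, out of 18193 genes so measured. Ccnb1, which encodes cyclin B1, had none and is not reported. Each gene is represented by its probe set of highest mean over the 6 arrays.

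NOX-A12 is a mirror-image RNA oligonucleotide that binds the chemokine CXCL12, and the comparison asks what its administration does to marrow gene expression. All 6 mice, controls included, were of the SCID/Bg strain, which carries the scid and beige mutations and lacks mature T and B lymphocytes. The untreated mice are described only as untreated, so no vehicle control is described, and the sources used here do not give dose, schedule, age or sex. RNA of each animal was measured on its own Mouse Genome 430 2.0 array, with precision set by how few arrays there are.

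Cells copy their chromosomes once per division. In G1 phase the proteins CDC6 and CDT1 load the ring-shaped MCM helicase onto replication origins. Cyclin E with its kinase, together with CDC45 and the GINS complex, then starts the helicase, and PCNA clamps the polymerases onto DNA. Mitotic genes such as those of the B cyclins, Aurora kinases and spindle motors are transcribed later, in G2 phase and mitosis. Bone marrow is among the most proliferative adult tissues, with most divisions in erythroid, granulocytic and lymphoid precursors, so both groups of transcripts are abundant there. In bulk RNA, fewer dividing cells and less RNA per dividing cell cannot be told apart.

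The promoters of the genes differ in the elements they hold, and 6 are shown, 3 of replication and 3 of mitotic genes, because these elements are the usual textbook distinction between the 2 groups. They are the genes of smallest p in each list among those whose promoter was found and held a motif. The elements searched on both strands were the cell-cycle homology region (CHR) TTTGAA, the CCAAT box, and the E2F sites GGCGGGAA, TTTCGCGC, TTTGGCGC and TTTCCCGC. The first and last E2F letters overlap on opposite strands and can mark the same site. The E2F family drives S-phase genes, and the CHR is bound by the DREAM and MYBL2-FOXM1 complexes that time mitotic genes. The sequences are from RefSeq's GRCm38.p6 annotation, from 250 bases before to 50 bases after the gene's start. Capitals mark the matched motifs, in either direction, and in Mcm7 a TTTCGCGC and a CCAAT share bases.
Cdt1 (chr8:122567765-122568064, plus strand): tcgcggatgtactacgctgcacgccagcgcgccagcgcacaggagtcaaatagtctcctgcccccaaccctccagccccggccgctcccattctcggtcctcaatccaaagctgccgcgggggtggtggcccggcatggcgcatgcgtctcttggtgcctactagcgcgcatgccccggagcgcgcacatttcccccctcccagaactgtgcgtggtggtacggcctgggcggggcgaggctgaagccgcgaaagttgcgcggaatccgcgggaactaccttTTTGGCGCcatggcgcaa
Mcm7 (chr5:138171834-138172133, minus strand): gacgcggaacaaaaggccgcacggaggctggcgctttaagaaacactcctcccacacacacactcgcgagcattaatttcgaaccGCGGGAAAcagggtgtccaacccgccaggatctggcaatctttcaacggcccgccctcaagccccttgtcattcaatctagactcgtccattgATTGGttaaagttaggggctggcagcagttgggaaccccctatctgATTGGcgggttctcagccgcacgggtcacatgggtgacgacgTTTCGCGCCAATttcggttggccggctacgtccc
Cdc45 (chr16:18811923-18812222, minus strand): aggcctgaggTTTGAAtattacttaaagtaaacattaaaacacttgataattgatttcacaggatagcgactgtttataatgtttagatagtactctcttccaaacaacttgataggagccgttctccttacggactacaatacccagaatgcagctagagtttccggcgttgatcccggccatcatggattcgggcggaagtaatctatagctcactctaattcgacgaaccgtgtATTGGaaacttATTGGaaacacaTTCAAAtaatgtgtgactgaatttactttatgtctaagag
Cenpe (chr3:135212313-135212612, plus strand): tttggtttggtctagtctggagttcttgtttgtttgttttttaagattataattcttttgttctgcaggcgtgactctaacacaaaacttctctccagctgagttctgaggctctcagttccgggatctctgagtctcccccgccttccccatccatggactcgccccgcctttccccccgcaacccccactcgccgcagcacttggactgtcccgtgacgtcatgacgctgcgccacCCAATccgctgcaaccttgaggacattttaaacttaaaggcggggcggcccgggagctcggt
Aurka (chr2:172370521-172370820, minus strand): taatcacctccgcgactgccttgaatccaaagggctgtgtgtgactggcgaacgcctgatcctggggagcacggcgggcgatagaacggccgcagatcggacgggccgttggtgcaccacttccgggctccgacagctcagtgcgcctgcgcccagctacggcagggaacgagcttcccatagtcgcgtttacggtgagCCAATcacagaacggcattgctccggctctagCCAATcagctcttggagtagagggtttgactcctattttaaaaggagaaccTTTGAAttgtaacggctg
Kif11 (chr19:37376132-37376431, plus strand): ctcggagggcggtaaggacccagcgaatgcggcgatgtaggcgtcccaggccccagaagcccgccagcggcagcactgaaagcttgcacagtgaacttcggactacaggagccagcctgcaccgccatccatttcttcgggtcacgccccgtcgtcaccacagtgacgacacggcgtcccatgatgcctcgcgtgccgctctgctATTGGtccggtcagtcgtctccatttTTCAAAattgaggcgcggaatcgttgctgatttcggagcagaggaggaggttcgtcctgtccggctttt

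A promoter was found for 28 of the 34 genes, 13 of replication and 15 of mitosis, Ccnb1 among the latter. The CHR letters were present in 11 of 15 mitotic promoters (73.3%), in 2 of 13 replication promoters (15.4%), and in 20.2% of the 27025 genes of the promoter table. The E2F letters were present in 7 of 13 replication promoters (53.8%), in 1 of 15 mitotic promoters (6.67%), and in 4% of all. The CCAAT letters were present in 14 of 15 mitotic promoters (93.3%), 9 of 13 replication promoters (69.2%) and 41.1% of all. Mcm7 and Cdt1 above carry E2F letters, Cenpe carries a CCAAT box alone, Aurka and Kif11 carry a CCAAT box followed by the CHR, and Cdc45 is 1 of the 2 replication promoters that carry the CHR. Mcm7 has a second promoter entry without E2F letters, and the entry with more matches is the one shown. In the counts, a gene held a motif if any of its promoter entries did. A match of letters is a description of these windows and shows no binding.

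The replication and mitotic genes differed little between treated and untreated marrow. In limma with Benjamini-Hochberg adjustment over 45037 probe sets, 0 of the 33 genes passed an adjusted p of 0.05 (lowest 0.967), and 0 probe sets, or 0%, passed on the whole array. At an unadjusted p under 0.05 the count was also 0 of 33, against 5.31% of all genes. Each change below is the treated mean minus the untreated mean of log2(intensity + 16), with its limma standard error after the ± sign. They ranged from -0.21 for Gins1 to 0.39 for Cenpe, and their standard errors from 0.09 to 0.41. The limma 95% interval of the change lay within 1.5-fold in both directions for 31 of the 33 genes (93.9%, against 85.4% of all genes) and within 2-fold for 32. The exceptions were Tyms (-0.37 to 0.94) and Cenpe (-0.58 to 1.36), of which only Cenpe reached beyond 2-fold.

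Untreated mouse 3 stood apart from the other arrays. There, 851 probe sets (1.89% of all) differed by over 2-fold from the median of the remaining 5 mice, whereas 44 to 67 did so on any other array, while array medians were alike (intensities from 44.8 to 45.6). The brightest marker of the erythroid precursor list was Car2, at a mean intensity of 9760, and that of the granulocyte precursor list was Mpo, at 7658. The mean lay below the array median for 1 of 8 erythroid precursor markers (Hba-a1), 1 of 9 B-cell precursor markers (Pax5) and 0 of 6 granulocyte precursor markers. In comparison, 4 of 5 mature T-cell markers and 5 of 6 skeletal muscle markers lay below the array median. In the treated mice the summed intensity of 7 stromal reticular markers (3659 to 4415) did not overlap that of the untreated mice (4980 to 6254), and that of 9 B-cell precursor markers was 3746 to 4958 against 4828 to 6279. Cxcl12, at a mean intensity of 3339, made up most of the stromal sums. All 7 stromal markers were below 0 (median change -0.56), as were 7 of the 9 B-cell precursor markers (median -0.32). All treated mice lay below all untreated mice for 5 of the 7 stromal markers (71.4%). The same held for 3 of the 9 B-cell precursor markers (33.3%) and for 6.68% of all genes. The median change of the other marrow lists was 0.03 for 8 erythroid precursor markers, 0.12 for 6 granulocyte precursor markers, 0.11 for 6 neutrophil markers, -0.03 for 6 stem and progenitor markers, -0.14 for 5 megakaryocyte markers and -0.02 for 5 monocyte markers. It was 0.01 for 6 muscle markers and -0.06 for 5 T-cell markers. The part of these differences in the values below was not tested.

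**Figure D1:**
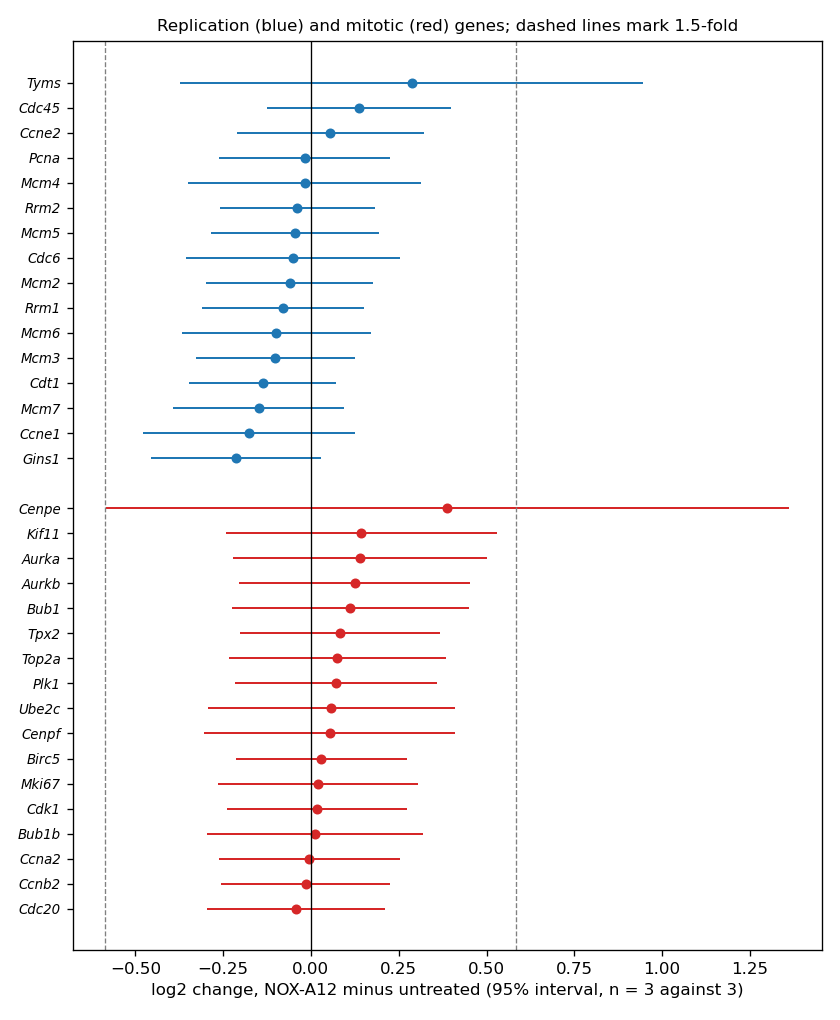
Log2 change, NOX-A12 minus untreated, of 16 replication genes (blue) and 17 mitotic genes (red), with limma 95% intervals over 3 against 3 mice. Every interval includes 0; the intervals of Tyms and Cenpe are the 2 that reach past the dashed lines at 1.5-fold.

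All 6 genes of the MCM helicase had changes below 0, from -0.15 for Mcm7 to -0.02 for Mcm4, and none passed the test. Without untreated mouse 1, 3 of the 6 were above 0, at 0.01 for Mcm2, 0.11 for Mcm4 and 0.02 for Mcm5. Mcm2, the subunit gene most often used as a proliferation marker, had intensities of 2366, 1990 and 2070 in untreated mice 1 to 3 and 2001, 2071 and 2070 in NOX-A12 mice 1 to 3. Its change was -0.06 ± 0.10 (limma adjusted p 0.971), and only untreated mouse 1 lay above the treated mice. The other subunit genes gave -0.10 ± 0.10 (Mcm3), -0.02 ± 0.14 (Mcm4), -0.04 ± 0.10 (Mcm5) and -0.10 ± 0.11 (Mcm6).

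Mcm7 had intensities of 6138, 5111 and 5290 in untreated mice 1 to 3 and 4915, 5092 and 4858 in NOX-A12 mice 1 to 3. The groups did not overlap, but untreated mouse 2 lay just above NOX-A12 mouse 2. The change of -0.15 ± 0.10 was -0.07 without untreated mouse 1. Of its other 3 probe sets, 2 gave -0.16 and -0.15 and 1 gave 0.05, and the groups overlapped at all 3. Cdt1, whose product loads the helicase and is destroyed once S phase begins, had 3753, 3658 and 3891 in untreated and 3557, 3255 and 3459 in treated mice, a change of -0.14 ± 0.09. All treated mice lay below all untreated mice, but the groups overlapped at the second probe set of the gene, which gave -0.08 ± 0.10. The remaining, very dim probe set gave 0.16 ± 0.10. Cdc6, the partner of CDT1, gave -0.05 ± 0.13 and overlapped.

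Gins1, which encodes a subunit of the GINS complex, had the lowest change of the 33 genes. Its intensities were 718, 656 and 780 in untreated mice 1 to 3 and 644, 582 and 621 in NOX-A12 mice 1 to 3, means of 718 ± 62.1 and 616 ± 31.3 (SD, n = 3). The groups did not overlap, and the limma change was -0.21 ± 0.10 (95% interval -0.45 to 0.02, unadjusted p 0.0719, adjusted p 0.967). It lay between -0.28 and -0.15 when each mouse was left out. The other probe set of Gins1, dimmer and of a type marked as able to bind other transcripts, gave -0.34 ± 0.13. Its groups did not overlap either (limma unadjusted p 0.0325, adjusted p 0.967). The probe sets used for Mcm5, Rrm2, Ccne1, Aurkb and Cdc20 are of the same type. Cdc45, whose product works in the same helicase as GINS, went the other way at 0.14 ± 0.11, with untreated mouse 1 among the treated values (692 against 647 to 700).

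At the probe sets used, Gins1, Cdt1 and Mcm7 were the 3 replication genes whose groups did not overlap, all with treated mice lower. That is 18.8% of 16 genes, against a background of 6.68% of all genes. In the other direction the groups of 0 replication genes did not overlap, against 3.92% of all genes. No mitotic gene had groups that did not overlap in either direction.

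**Figure D2:**
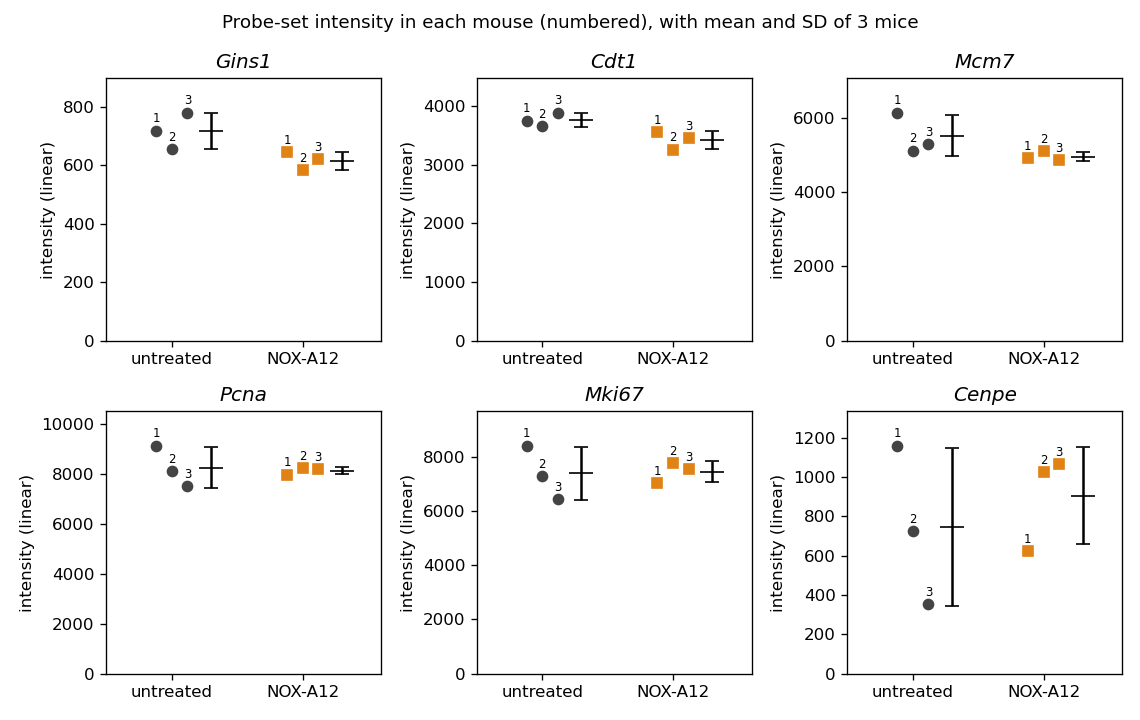
Linear intensity of 6 genes in each mouse (points numbered by mouse; circles untreated, squares NOX-A12), with mean and SD of 3 mice to the right of each group. Gins1, Cdt1 and Mcm7 do not overlap between groups; Pcna, Mki67 and Cenpe overlap.

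The clamp, nucleotide and cyclin E genes overlapped between the groups. Pcna had intensities of 9152, 8130 and 7519 in untreated and 7981, 8250 and 8195 in treated mice, a change of -0.02 ± 0.10. The treated mice all lay inside the range of the untreated ones. Rrm1 and Rrm2, which encode the subunits of ribonucleotide reductase, gave -0.08 ± 0.10 and -0.04 ± 0.09, and Tyms, the thymidylate synthase gene, gave 0.29 ± 0.28 at a dim probe set with 149, 112 and 55.2 in untreated against 119, 131 and 121 in treated mice. Its low value in untreated mouse 3 sets the sign, since the change was -0.05 without that mouse. Ccne1, encoding cyclin E1, had 1169, 965 and 1243 in untreated and 1039, 1045 and 889 in treated mice, a change of -0.18 ± 0.13, while Ccne2 gave 0.05 ± 0.11.

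Genes of the mitotic cyclins and their kinase were close to 0. Ccna2, whose product acts in both S phase and mitotic entry, gave -0.0044 ± 0.11, Ccnb2 gave -0.01 ± 0.10 and Cdk1, the kinase that both cyclins activate, gave 0.02 ± 0.11. Mki67, which encodes the Ki-67 protein that coats mitotic chromosomes, had intensities of 8427, 7306 and 6454 in untreated mice 1 to 3 and 7047, 7782 and 7567 in NOX-A12 mice 1 to 3. The treated values lay within the untreated range, and the change was 0.02 ± 0.12 (95% interval -0.26 to 0.30, limma adjusted p 0.993). Top2a, the topoisomerase gene that untangles sister chromatids, gave 0.08 ± 0.13.

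The mitotic kinase and spindle genes had changes above 0 with overlapping groups, and the sign often rested on 1 untreated mouse. Without untreated mouse 3, Bub1, Bub1b, Cenpe and Cenpf were below 0, and without untreated mouse 2, Plk1, Birc5, Bub1b and Cenpf were. Aurka, encoding the kinase that matures centrosomes, had 1282, 916 and 927 in untreated and 1109, 1256 and 1051 in treated mice, a change of 0.14 ± 0.15. Aurkb, the kinase gene of the chromosomal passenger complex, had 1225, 957 and 889 against 1017, 1139 and 1170, a change of 0.12 ± 0.14. In both genes untreated mouse 1 was the highest of the 6 mice and the other untreated mice were the lowest. Birc5 (survivin, of the same complex) gave 0.03 ± 0.10 and Plk1, a kinase of mitotic entry, 0.07 ± 0.12. Bub1 and Bub1b, kinases of the spindle checkpoint, gave 0.11 ± 0.14 and 0.01 ± 0.13.

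Kif11, the motor gene that separates spindle poles, had 1927, 1578 and 1297 in untreated and 1582, 1695 and 1990 in treated mice, a change of 0.14 ± 0.16 that was 0.0029 without untreated mouse 3. Cenpe, a kinetochore motor gene, had 1159, 725 and 352 in untreated and 622, 1025 and 1066 in treated mice, a change of 0.39 ± 0.41. The untreated mice spread over more than the whole range of the treated ones, and the change was -0.06 without untreated mouse 3 and 0.78 without untreated mouse 1. Cenpf, also of the kinetochore, gave 0.05 ± 0.15 and Tpx2, an activator of Aurora A, 0.08 ± 0.12. Cdc20 and Ube2c, whose products act in the destruction of cyclin B during mitosis, gave -0.04 ± 0.11 and 0.06 ± 0.15.

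Set side by side, 13 of the 16 replication genes had changes below 0 and 14 of the 17 mitotic genes above 0. The medians were -0.06 and 0.06, against -0.01 over all 18193 genes, of which 52.8% were below 0. The mean log2 level of the replication genes was 11.14, 10.93 and 10.93 in untreated mice 1 to 3 and 10.96, 10.97 and 10.95 in NOX-A12 mice 1 to 3. That of the mitotic genes was 11.31, 10.995 and 10.87 in untreated and 11.03, 11.19 and 11.18 in treated mice. Both overlapped between the groups. The replication level minus the mitotic level was -0.17, -0.07 and 0.06 in untreated and -0.08, -0.22 and -0.23 in treated mice, means of -0.06 ± 0.12 and -0.18 ± 0.09 (SD, n = 3), and these overlapped too. The signs of the medians depended on single mice: the replication median was 0.01 without untreated mouse 1 and the mitotic median -0.04 without untreated mouse 3, and their difference lay between -0.17 and -0.05 when each mouse was left out.

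The genes varied more among the untreated mice than among the treated ones. Untreated mouse 1 was the highest of the 6 mice for 16 of the 17 mitotic genes (94.1%) and 11 of the 16 replication genes (68.8%), against 17.4% of all genes. Its mean mitotic level was 0.21 above the mean of the 6 mice and its replication level 0.17 above. Untreated mouse 3 was the lowest for 10 of the 17 mitotic genes (58.8%, against 21.2% of all genes) but for only 4 of the 16 replication genes. Relative to the mean of the 6 mice, its mitotic level was -0.23 and its replication level -0.05. Each of these means includes 1 far value, -1.09 for Cenpe and -0.83 for Tyms, the latter at a dim probe set. The next lowest values were -0.35 for Kif11 and -0.25 for Mcm4, and some replication genes, such as Gins1 (0.23), were above 0. The SD between mice was larger in the untreated than in the treated group for 17 of 17 mitotic genes and 14 of 16 replication genes, against 63.5% of all genes and 71% of the 8695 genes at least as bright as the dimmest of the 33. The median SDs were 0.21 against 0.08 for mitotic and 0.14 against 0.06 for replication genes. The mean log2 level of 8 of 10 erythroid precursor markers, relative to the 6 mice, was 0.16 in untreated mouse 1 and -0.16 in untreated mouse 3. Their summed intensity was 39417 to 47612 in untreated and 43035 to 45528 in treated mice. The mean level of 6 of 7 granulocyte precursor markers was -0.11 and -0.14 in the same untreated mice, with sums of 18977 to 22656 and 21477 to 22651. That of 6 of 8 neutrophil markers was 0.16 and -0.37, with sums of 37576 to 41273 and 38574 to 41362. That of 5 of 6 monocyte and macrophage markers was 0.13 and -0.29, with sums of 6638 to 8104 and 7217 to 8015. For B-cell precursor markers (9 of 10) the mean level was 0.28 and 0.08, and for stem and progenitor markers (6 of 7) -0.11 and 0.03. For megakaryocyte markers (5 of 6) it was -0.24 and 0.15, and for 7 stromal markers 0.08 and 0.46. For 6 muscle markers it was -0.115 and 0.07, and for T-cell markers (5 of 6) 0.02 and -0.02. Untreated mouse 3 was the lowest for 3 of the 6 neutrophil markers and 2 of the 5 monocyte and macrophage markers. Its Cxcr2 was 483 (1029 to 1692 in the other mice) and its Ccr2 784 (1478 to 1914). Its S100a8 was 16503 (16433 to 16790) and its Vcam1 3089 (2849 to 3164), both within the range of the others. The part of these marker lists in the spread was not tested.

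**Figure D3:**
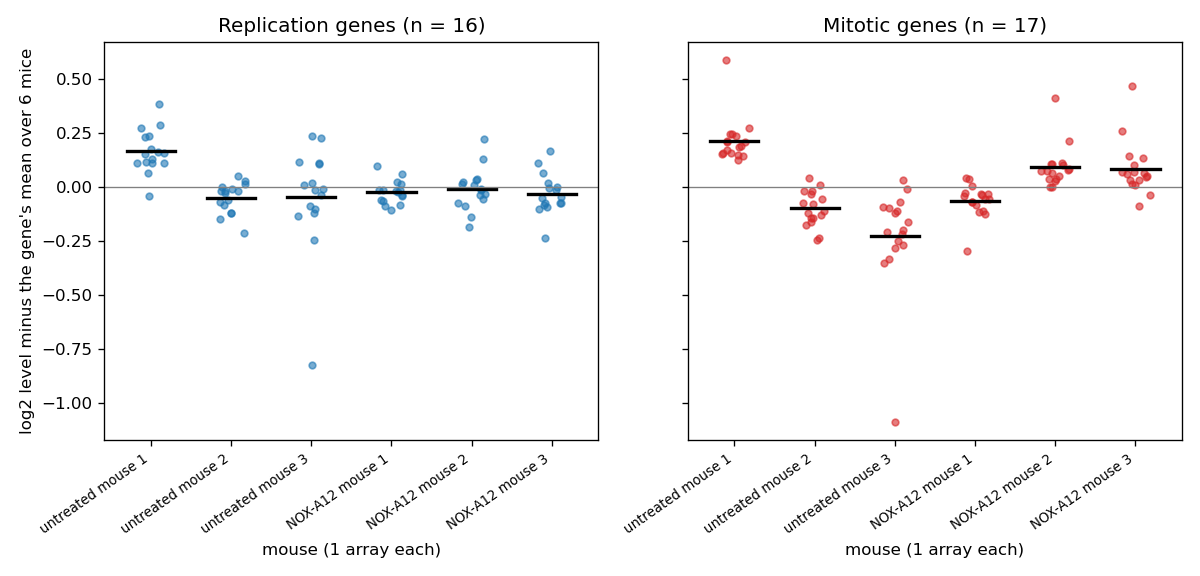
Log2 level of each gene minus its own mean over the 6 mice, for 16 replication genes (left) and 17 mitotic genes (right); each point is a gene and black bars are means. The mean of untreated mouse 1 is the highest in both panels, and that of untreated mouse 3 the lowest in the mitotic panel, at -0.23. The latter mean includes Cenpe at -1.09.

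Probe sets of 1 gene did not always give the same value on untreated mouse 3. Over all 76 probe sets of the 33 genes, 5 (6.58%) were more than 2-fold under the other mice's median on this array, against 0 or 1 on each of the others. They belonged to Cenpe, Cenpf, Kif11, Rrm1 and Aurka, the last at a dim probe set. Rrm1 had 3332, 3001 and 3066 in untreated and 2827, 2890 and 3181 in treated mice at its brightest probe set, but 1480, 812 and 208 in untreated and 746, 1031 and 1004 in treated mice at another. Relative to the median of the other mice, the log2 value of untreated mouse 3 was -2.19 at the second and 0.03 at the first. Cenpe showed the same contrast, with -1.499 at the probe set used and -0.19 at the other, where the change between groups was -0.01 ± 0.14. What sets these probe sets apart was not tested.

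**Figure D4:**
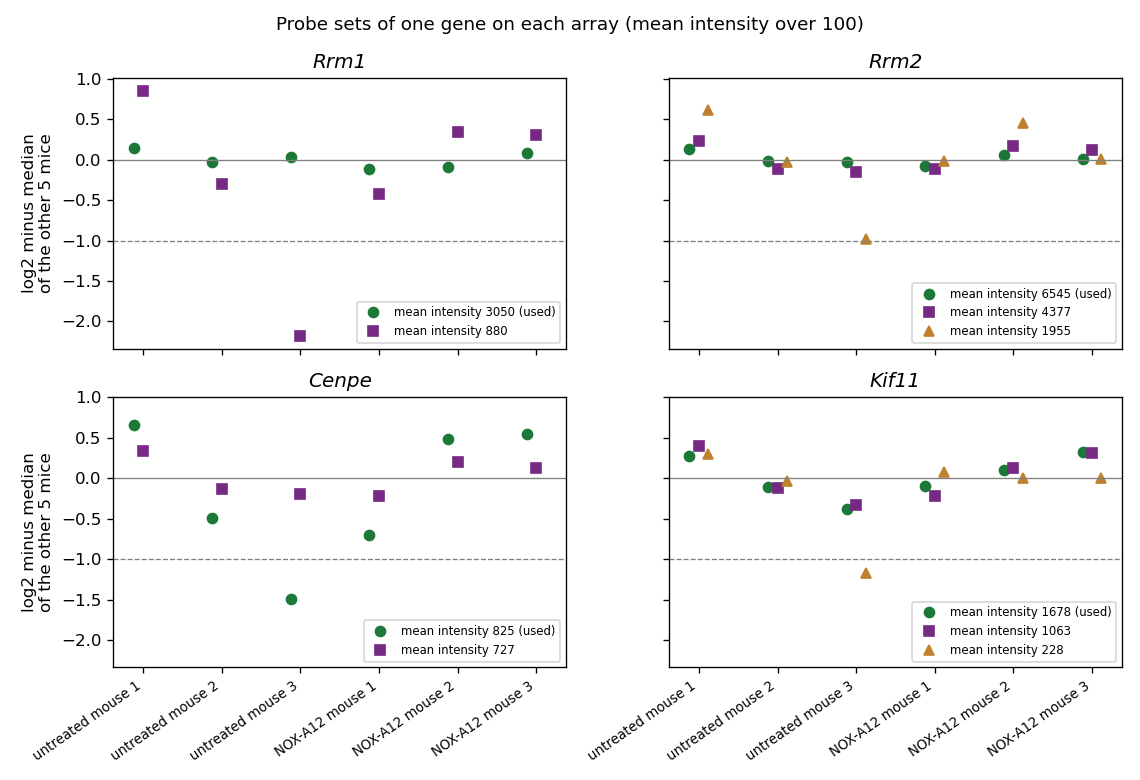
Log2 intensity minus the median of the other 5 mice for the probe sets of 4 genes with a mean intensity over 100, 1 marker per probe set; the dashed line marks 2-fold lower. On untreated mouse 3 a probe set of Rrm1, Cenpe and Kif11 falls below the line, and 1 of Rrm2 just above it, while other probe sets of the same genes do not.

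Other genes of the cell cycle were compared as 3 lists with 110 measured members of 112. In limma 0 of the 110 passed over all probe sets, and 1 had an unadjusted p under 0.05, against 5.31% of all genes. Of 39 other replication genes, 30 were below 0, with a median of -0.07, and for 7 (17.9%, against 6.68% of all genes) every treated mouse was below every untreated mouse. Those of smallest p were Orc6, of the origin recognition complex (-0.20 ± 0.09), Chaf1b, which assembles nucleosomes behind the fork (-0.21 ± 0.10), and Rfc1, of the clamp loader (-0.16 ± 0.09). Their limma adjusted p was 0.967 each. Of 41 other mitotic genes, 21 were below 0, with a median of -0.01, and the groups overlapped for all of them. The smallest p belonged to the kinetochore genes Cenph (-0.20 ± 0.13), Cenpk (-0.18 ± 0.16) and Knl1 (0.53 ± 0.49). Knl1 had 781, 391 and 164 in untreated and 438, 674 and 542 in treated mice, so untreated mouse 1 was the highest and untreated mouse 3 by far the lowest. In this longer list 20 genes were above 0 and 21 below, against 14 and 3 of the 17 mitotic genes described above.

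Among 30 regulators of the cycle, 16 were below 0, with a median of -0.01, and for 2 (6.67%, against 6.68% of all genes) every treated mouse was below every untreated mouse. Rb1, the retinoblastoma protein gene that restrains E2F, had 2860, 2859 and 2955 in untreated and 2229, 2468 and 2599 in treated mice. The groups did not overlap, and the change of -0.25 ± 0.10 had an unadjusted p of 0.0329 and a limma adjusted p of 0.967. Cdkn2b, the gene of the CDK inhibitor p15, was dim in all mice, did not overlap between the groups and gave -0.19 ± 0.09, and the repressor gene E2f6 gave 0.26 ± 0.14 with overlapping groups. The untreated mouse 1 was the highest for 29 of the 41 other mitotic (70.7%) and 24 of the 39 other replication genes (61.5%). It was also the highest for 11 of the 30 regulators (36.7%), against 17.4% of all genes.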

How the data were processed

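Biotin-labelled RNA of 6 mice was hybridised to Affymetrix Mouse Genome 430 2.0 arrays, per the labels' protocols. The authors' deposited values are linear probe-set intensity values (0.66 to 16790). The sources used here do not give software or normalization. Array medians of log2 values lay within 0.0193 (limit 0.1), so values were used as deposited. Groups and mouse numbers came from titles.

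Of 45037 probe sets, 34945 had 1 symbol in the platform annotation, 932 several and 9160 none; those with several or none stayed unnamed. Values were transformed to log2(intensity + 16) and tested, two-sided, by limma's moderated fit (version 3.58.1, R version 4.3.3, 7.24 degrees of freedom), with Benjamini-Hochberg adjustment over all probe sets. P-values measure the spread between separately numbered mice. The median SD between mice was 0.147. The scripts were tested on simulated data.

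Members and lists were chosen with earlier results of these data known. All members are named, with values in each mouse for Mki67, Pcna, Mcm2, those with groups that do not overlap, and the 4 of smallest p in each list; of the other cell-cycle genes, the 3 of smallest p in each list are named. The 10 marker lists were of erythroid and granulocyte precursors, neutrophils, B-cell precursors, progenitors, megakaryocytes, monocytes, stromal cells, muscle and T cells. Alternatives covered normalization, offset, filter, variance model, array weights, mouse number as a block, each mouse left out, and the choice of probe set.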

Additional observations from a re-analysis of the deposited data

How the results depend on the processing

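In limma, 0 members, 0 of the other cell-cycle genes and 0 probe sets passed under every alternative that was run. The mouse numbers name different animals, and same-numbered mice did not deviate together (correlations of -0.0895, 0.0528 and 0.0287). With the replicate block the count of members past the threshold stayed 0. Each mouse number occurs once per group, so the block alters the standard errors but cannot alter the changes. The medians of -0.06 and 0.06 and the signs were therefore bound to stay the same. The list medians and their difference moved by less than an SD between mice (0.088, 0.172 and 0.101) under every alternative that was run. This SD, pooled over both groups, was that of each list's mean log2 level and of the difference of the levels. The limit is a weak one. With 3 mice a group, leaving 1 out cannot move a list's mean change by that much. The block and the variance model leave the changes as they were. The SDs of the replication and mitotic levels exceed the median changes of those lists in size, so a median can turn sign without moving by a full SD. The replication median did so without untreated mouse 1, and the mitotic median without untreated mouse 3. The number of members with an unadjusted p under 0.05 was 2 with an offset of 64, 2 without untreated mouse 1, 1 without untreated mouse 2, 1 with the second-brightest probe set, 1 with the mean of all probe sets, and 0 otherwise; whether these were the same members was not counted.

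None of the following changes passed the test in either form, and the cause of each turned sign was not tested. Quantile normalization gave -0.0029 for Bub1b, and array weights -0.0063 for Cdk1. The second-brightest probe set, which 24 members have, gave 0.0469 for Mcm5, 0.0465 for Mcm7, -0.0657 for Cdc45, 0.52 for Rrm1, 0.0299 for Rrm2, -0.0122 for Tyms, 0.11 for Ccna2, -0.17 for Bub1 and -0.0126 for Cenpe. The mean of all probe sets gave 0.11 for Rrm1, 0.0883 for Rrm2, 0.054 for Ccna2, -0.0022 for Top2a and -0.0272 for Bub1. Leaving out probe sets marked as shared gave 0.0469 for Mcm5 and 0.0299 for Rrm2.

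Leaving out each mouse turned 9 of 33 signs without untreated mouse 1, 5 without untreated mouse 2, 9 without untreated mouse 3, and 3, 2 and 3 without NOX-A12 mice 1, 2 and 3. The ranges of the changes that turned were, for replication genes, -0.1118 to 0.0124 (Mcm2), -0.1456 to 0.1144 (Mcm4), -0.0977 to 0.0231 (Mcm5), -0.1242 to 0.0791 (Cdc6), -0.0832 to 0.0582 (Pcna), -0.0669 to 0.0088 (Rrm2), -0.0549 to 0.5495 (Tyms) and -0.0145 to 0.1247 (Ccne2). For mitotic genes they were -0.0544 to 0.074 (Ccna2), -0.0747 to 0.0446 (Ccnb2), -0.0601 to 0.0996 (Cdk1), -0.041 to 0.1885 (Top2a), -0.0729 to 0.1191 (Mki67), -0.0325 to 0.163 (Plk1), -0.0204 to 0.1075 (Birc5), -0.0016 to 0.2621 (Bub1), -0.0649 to 0.1348 (Bub1b), -0.0587 to 0.7781 (Cenpe), -0.0374 to 0.2053 (Cenpf), -0.1147 to 0.0224 (Cdc20) and -0.0951 to 0.1762 (Ube2c).

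With 3 mice a group, the members' standard errors (median 0.11) set what could be seen. Intensities of different probe sets are not comparable between genes, and dim probe sets such as that of Tyms have changes understated by the offset. Probe sets that name several genes were not used here, and Ccnb1 was not analysed.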
